A study of Mus musculus with 12 samples.

Results

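Transcripts of 8 paired myeloid receptors of the mouse were followed: Pirb, Lilrb4a, Cd300a, Cd300lb, Cd300ld, Cd300lf, Sirpa and Lair1. They were taken by gene name from a table of 27487 genes, where all 8 had a row, and all 8 passed the filter on low counts that left 16387 genes for testing. BV2 is an immortalised mouse microglial line, and 12 libraries were made from its polyadenylated RNA, 4 for each of 3 groups. In the Neu+NETS group BV2 cells shared the culture with primary mouse neutrophils that had been given phorbol 12-myristate 13-acetate (PMA), an agent that makes neutrophils expel webs of chromatin and granule protein known as neutrophil extracellular traps. In the Neu group the primary neutrophils had received no PMA, and in the CTR group BV2 cells grew alone. BV2 cells were common to all 3 groups, so no group stands for primary microglia, and the labels name retina as the tissue beside the cell line. Libraries held 53512190 to 68316549 estimated counts. The sources used here do not say whether BV2 cells were parted from neutrophils before RNA was taken, whether residual PMA reached them, or whether the libraries of a group came from separate cultures, so each p-value is set against a spread between libraries that may be technical.

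Paired receptors are families of closely related cell surface proteins in which some members inhibit and others activate the cell. The inhibitory members carry immunoreceptor tyrosine-based inhibitory motifs (ITIMs) in their cytoplasmic tail, which are phosphorylated by Src-family kinases and then hold the phosphatases SHP-1, SHP-2 or SHIP1. The activating members have a short tail and signal through adaptors that carry an activating motif, DAP12 or the Fc receptor gamma chain. In microglia and other myeloid cells such receptors are known for setting the threshold of phagocytosis and cytokine release. Neutrophils carry several of them too, among them Pirb, Sirpa and members of the CD300 family. Fewer cells of a type and less RNA per cell cannot be told apart in bulk RNA, nor can RNA of BV2 cells and of neutrophils left in a culture.

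The 8 receptor transcripts were lower in Neu+NETS than in either of the other groups, and 6 of them rose in Neu against CTR, Sirpa among these by 1.06-fold only. Against CTR, all 8 fell in Neu+NETS (edgeR quasi-likelihood test, Benjamini-Hochberg adjusted p under 0.05), where 23.7% of the 16387 genes tested fell, 21.6% rose and 45.3% changed in either direction. A fall of at least 1.5-fold was found for 7 of the 8, and for 9.90% of all genes. In Neu against CTR, 6 receptors rose, 1 fell and 1 did not pass the test, where 26.1% of all genes rose, 27.9% fell and 54.1% changed. In Neu+NETS against Neu, all 8 fell, 7 of them at least 2-fold, where 33.1% of all genes fell, 12.7% fell at least 2-fold, 29.4% rose and 62.5% changed. Levels per length, in fragments per kilobase of transcript and per unit of library size (FPKM), did not overlap for any of the 8 between Neu+NETS and CTR (42.2% of all genes do not) or between Neu+NETS and Neu (59.6%). They did not overlap for 5 of the 8 between Neu and CTR (51.6%). The median log2 fold change of the 8 was -1.0 for Neu+NETS against CTR, 0.58 for Neu against CTR and -1.40 for Neu+NETS against Neu, and the medians of all genes tested were 0.00, 0.02 and -0.05 in the same order. These comparisons share libraries, so the values of a receptor in the 3 of them are not independent.

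**Figure D1:**
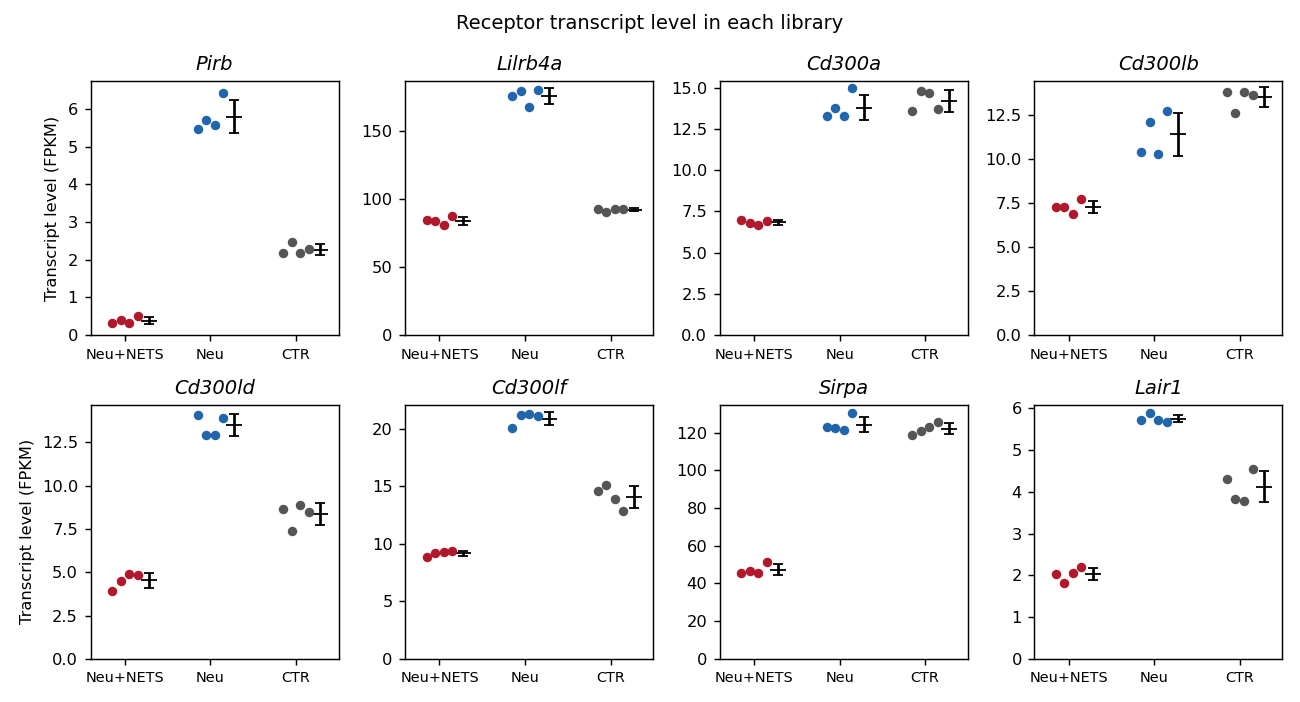
Transcript level of each receptor in FPKM (linear axis from 0) in the 4 libraries of Neu+NETS, Neu and CTR, with bars for the mean and SD. Every receptor is lowest in the 4 Neu+NETS libraries, and Cd300a, Cd300lb and Sirpa are the receptors whose Neu and CTR points overlap.

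Promoter sequence is shown for 4 receptors that rose in Neu against CTR and fell in Neu+NETS against both groups and that had an entry in the promoter table used. Lilrb4a and Sirpa were called in the same directions. RefSeq promoters of build GRCm38.p6 matched 6 of the 8 receptors by symbol, each reaching from 250 bases before the annotated start to 50 after it. The windows are Pirb at chr7:3720333-3720632, Cd300ld at chr11:114989837-114990136, Cd300lf at chr11:115133943-115134242 and Lair1 at chr7:4063155-4063454, all on the minus strand and printed 5′ to 3′. Capitals mark GAGGAA or its reverse complement TTCCTC, the core that ETS factors such as the myeloid regulator PU.1 recognise.
Pirb: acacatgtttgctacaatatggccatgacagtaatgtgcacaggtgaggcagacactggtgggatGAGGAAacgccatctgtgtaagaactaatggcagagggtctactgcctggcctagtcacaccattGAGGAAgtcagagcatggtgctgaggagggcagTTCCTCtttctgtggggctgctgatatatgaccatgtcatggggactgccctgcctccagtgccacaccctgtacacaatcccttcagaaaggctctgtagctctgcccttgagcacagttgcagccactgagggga
Cd300ld: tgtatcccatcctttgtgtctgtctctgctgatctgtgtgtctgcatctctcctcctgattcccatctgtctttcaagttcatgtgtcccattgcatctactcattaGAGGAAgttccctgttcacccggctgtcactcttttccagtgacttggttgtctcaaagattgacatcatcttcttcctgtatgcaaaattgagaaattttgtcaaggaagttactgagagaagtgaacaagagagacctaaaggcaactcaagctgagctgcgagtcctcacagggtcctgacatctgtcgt
Cd300lf: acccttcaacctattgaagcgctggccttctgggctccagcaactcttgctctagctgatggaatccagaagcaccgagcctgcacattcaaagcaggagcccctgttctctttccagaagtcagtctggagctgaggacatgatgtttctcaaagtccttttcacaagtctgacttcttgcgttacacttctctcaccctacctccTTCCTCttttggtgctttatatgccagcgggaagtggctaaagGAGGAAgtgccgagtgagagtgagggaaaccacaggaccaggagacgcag
Lair1: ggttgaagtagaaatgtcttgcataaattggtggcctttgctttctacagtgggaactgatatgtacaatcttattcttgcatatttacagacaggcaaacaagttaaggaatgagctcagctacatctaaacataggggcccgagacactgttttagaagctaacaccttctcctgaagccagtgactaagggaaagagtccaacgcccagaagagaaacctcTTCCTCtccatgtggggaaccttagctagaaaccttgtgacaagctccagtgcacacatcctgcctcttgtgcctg
GAGGAA was found on either strand in 5 of the 6 windows, those of Pirb, Cd300a, Cd300ld, Cd300lf and Lair1, and in 28.3% of the 32851 promoters of the same length. Pirb held 3 matches, which begin 185, 120 and 87 bases before the start. Cd300lf held a match 43 bases before the start and another at the start itself, and Lair1 held a match 26 bases before it. The AP-1 motif TGANTCA was in 0 of the 6 windows and in 7.81% of all promoters, and the hypoxia-response core ACGTG was in 0 of the 6 and in 19.6% of all. The Cd300lb window held no match to GAGGAA, and that of Cd300a held a match 39 bases before the start. Whether matches go with a change in transcript level was not tested. A match is a stretch of letters and was not measured as a bound site.

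Pirb encodes an ITIM receptor for MHC class I molecules and for Nogo, and lies at chr7:3714408-3723390 on the minus strand (GRCm39, as in the deposited table). It had 0.314, 0.404, 0.323 and 0.506 FPKM in Neu+NETS, against 5.48, 5.71, 5.57 and 6.44 FPKM in Neu and 2.17, 2.46, 2.18 and 2.29 FPKM in CTR. The 3 groups did not overlap, and every Neu+NETS library was below every library of the other groups. Against CTR, Pirb was 6.09-fold lower in Neu+NETS (log2 fold change -2.61 ± 0.124 SE, edgeR adjusted p = 3.0e-11) and 2.65-fold higher in Neu (1.40 ± 0.11 SE, adjusted p = 8.9e-09). Against Neu it was 16.1-fold lower in Neu+NETS (log2 fold change -4.01 ± 0.127 SE, edgeR adjusted p = 4.1e-14). Pirb was the lowest of the 8 receptors in Neu+NETS, with 97 to 141 estimated counts a library and a coefficient of variation of 23.1%. On log2(FPKM + 1) with limma, a scale that understates the change of low genes, its log2 fold changes were -1.24 for Neu+NETS against CTR and -2.29 for Neu+NETS against Neu, with the same calls. Of the 50-base windows of its GENCODE transcripts (GRCm38), 34.0% also occur in transcripts of other genes, Pira2 among them, so reads could be split among these copies. With all Pira rows summed into it, the log2 fold changes were -2.39, 1.18 and -3.57 for Neu+NETS against CTR, Neu against CTR and Neu+NETS against Neu.

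Lilrb4a, also known as gp49B, encodes an ITIM receptor of mast cells and macrophages and lies at chr10:51367052-51372707 on the plus strand. It had 84.3, 83.7, 80.5 and 87.8 FPKM in Neu+NETS, against 175.3, 179.3, 167.4 and 180.2 FPKM in Neu and 92.3, 90.7, 92.7 and 92.5 FPKM in CTR. Neu stood far above both other groups, and Neu+NETS lay just under CTR without overlap. Lilrb4a was 1.98-fold higher in Neu than in CTR (log2 fold change 0.99 ± 0.0257 SE, edgeR adjusted p = 9.1e-15) and 2.25-fold lower in Neu+NETS than in Neu (-1.17 ± 0.0257 SE, adjusted p = 4.6e-16). Its fall in Neu+NETS against CTR was 1.13-fold (-0.18 ± 0.0255 SE, adjusted p = 1.8e-05), the smallest of the 8. Of its 50-base transcript windows 46.7% are shared with other genes, among them the neighbouring Lilrb4b and Gm49339, whose row spans both. With Lilrb4b summed into it, the log2 fold changes were -0.13, 0.94 and -1.07 for Neu+NETS against CTR, Neu against CTR and Neu+NETS against Neu, all past the threshold. Gm49339, which shares 33.7% of the windows, was not part of that sum. It had 16.2 ± 7.81 FPKM in Neu+NETS, 28.7 ± 5.56 FPKM in Neu and 15.3 ± 2.73 FPKM in CTR (SD, n = 4 each). Whether the small fall against CTR holds with Gm49339 included was not tested.

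Sirpa encodes the ITIM receptor for CD47, the contact by which a cell restrains its own engulfment, and lies at chr2:129434755-129474148 on the plus strand. It had 45.3, 46.4, 45.8 and 51.6 FPKM in Neu+NETS, against 123.2, 122.6, 121.3 and 130.6 FPKM in Neu and 119.0, 120.8, 123.0 and 125.6 FPKM in CTR. Neu and CTR overlapped, and the 4 Neu+NETS libraries stood apart below them. Sirpa was 2.67-fold lower in Neu+NETS than in CTR (log2 fold change -1.42 ± 0.0338 SE, edgeR adjusted p = 5.4e-15) and 2.83-fold lower than in Neu (-1.50 ± 0.0339 SE, adjusted p = 5.9e-16). In Neu against CTR it passed narrowly, at 1.06-fold higher (95% interval 1.01 to 1.11, edgeR adjusted p = 0.0427). That call was lost in 14 of 23 alternatives, with adjusted p from 0.0508 to 0.695. Among the libraries left out in turn it was lost at adjusted p = 0.0518 without Neu+NETS replicate 2 and 0.0508 without Neu+NETS replicate 3 (edgeR). It was also lost at 0.0675, 0.0598, 0.055 and 0.102 without Neu replicates 1, 2, 3 and 4, and at 0.121, 0.0848 and 0.0676 without CTR replicates 1, 2 and 3 (edgeR adjusted p). None of the 50-base windows of its transcripts is shared with another gene.

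Lair1 encodes an ITIM receptor for collagens and C1q and lies at chr7:4006401-4066178 on the minus strand, beyond the Pir loci. It had 2.03, 1.82, 2.05 and 2.19 FPKM in Neu+NETS, against 5.71, 5.88, 5.71 and 5.68 FPKM in Neu and 4.31, 3.83, 3.79 and 4.55 FPKM in CTR. The groups did not overlap, and the Neu libraries lay within 0.2 FPKM of each other. Lair1 was 2.10-fold lower in Neu+NETS than in CTR (log2 fold change -1.07 ± 0.0675 SE, edgeR adjusted p = 1.1e-09), 1.45-fold higher in Neu than in CTR (0.54 ± 0.0656 SE, adjusted p = 2.1e-06) and 3.04-fold lower in Neu+NETS than in Neu (-1.61 ± 0.0677 SE, adjusted p = 1.6e-12).

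Cd300a and Cd300lf are the ITIM receptors of the CD300 family, which bind phosphatidylserine and other lipids exposed on dying cells. Cd300a, at chr11:114780867-114795480 on the plus strand, had 7.01, 6.78, 6.69 and 6.90 FPKM in Neu+NETS, against 13.3, 13.8, 13.3 and 15 FPKM in Neu and 13.6, 14.8, 14.7 and 13.7 FPKM in CTR. Only Neu+NETS stood apart. Cd300a was 2.14-fold lower in Neu+NETS than in CTR (log2 fold change -1.10 ± 0.0443 SE, edgeR adjusted p = 3.5e-12) and 2.17-fold lower than in Neu (-1.12 ± 0.0442 SE, adjusted p = 6.8e-13). In Neu against CTR the ratio was 1.01, with a 95% interval of 0.956 to 1.08 (edgeR adjusted p = 0.728).

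Cd300lf, at chr11:115007040-115024818 on the minus strand, had 8.89, 9.21, 9.27 and 9.37 FPKM in Neu+NETS, against 20.1, 21.2, 21.3 and 21.1 FPKM in Neu and 14.6, 15.1, 13.9 and 12.9 FPKM in CTR. The 3 groups were apart. Cd300lf was 1.59-fold lower in Neu+NETS than in CTR (log2 fold change -0.67 ± 0.0452 SE, edgeR adjusted p = 2.7e-09), 1.54-fold higher in Neu than in CTR (0.62 ± 0.0445 SE, adjusted p = 2.6e-09) and 2.45-fold lower in Neu+NETS than in Neu (-1.29 ± 0.0453 SE, adjusted p = 1.4e-13). Of the pair of inhibitory CD300 receptors, Cd300lf thus rose in Neu and Cd300a did not pass the test there. The difference between their changes was not tested.

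Cd300lb and Cd300ld are activating members of the family. Cd300lb signals through DAP12 and Cd300ld through the Fc receptor gamma chain. Cd300lb, at chr11:114813607-114825212 on the minus strand, had 7.27, 7.27, 6.85 and 7.70 FPKM in Neu+NETS, against 10.4, 12.1, 10.3 and 12.7 FPKM in Neu and 13.8, 12.6, 13.8 and 13.6 FPKM in CTR. Neu and CTR overlapped, and the 4 Neu libraries split into a lower and a higher pair. Cd300lb was 1.91-fold lower in Neu+NETS than in CTR (log2 fold change -0.94 ± 0.0657 SE, edgeR adjusted p = 4.3e-09) and 1.68-fold lower than in Neu (-0.75 ± 0.0655 SE, adjusted p = 2.3e-08). It was the receptor that fell in Neu against CTR, by 1.14-fold (-0.19 ± 0.0645 SE, edgeR adjusted p = 0.0221). This call was lost without Neu replicate 1 (edgeR adjusted p = 0.0828), Neu replicate 3 (0.0809), CTR replicate 1 (0.0525) or CTR replicate 3 (0.0563). The gene Gm11699 overlaps Cd300lb, and without a known strand setting their reads cannot be told apart.

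Cd300ld, at chr11:114873100-114880748 on the minus strand, had 3.91, 4.49, 4.89 and 4.82 FPKM in Neu+NETS, against 14.1, 12.9, 12.9 and 13.9 FPKM in Neu and 8.67, 7.40, 8.89 and 8.50 FPKM in CTR. The 3 groups did not overlap. Cd300ld was 1.91-fold lower in Neu+NETS than in CTR (log2 fold change -0.93 ± 0.0762 SE, edgeR adjusted p = 2.9e-08), 1.67-fold higher in Neu than in CTR (0.74 ± 0.0742 SE, adjusted p = 1.8e-07) and 3.20-fold lower in Neu+NETS than in Neu (-1.68 ± 0.0765 SE, adjusted p = 4.4e-12). Of its 50-base transcript windows 3.89% are shared with other genes, nearly all with Cd300lf. The shares for Cd300a and Cd300lf were 3.18% and 2.29%.

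**Figure D2:**
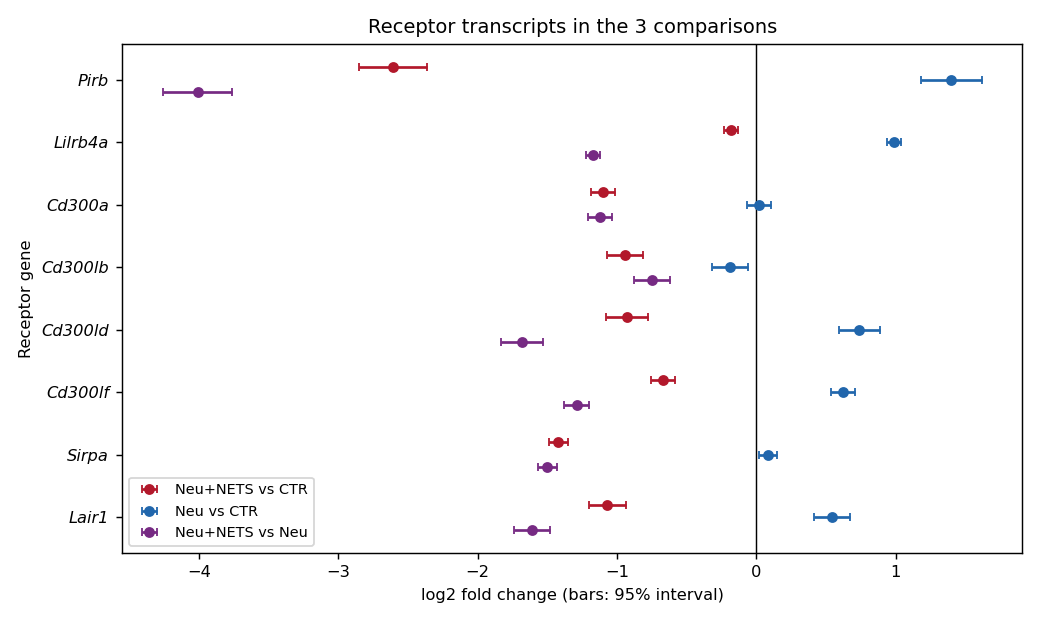
Log2 fold change of each receptor in Neu+NETS against CTR, Neu against CTR and Neu+NETS against Neu, from edgeR, with bars for the 95% interval. Pirb spans the widest range, from -4.01 to 1.40, and Cd300a and Sirpa lie near 0 in Neu against CTR.

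By level per length, Lilrb4a and Sirpa were the most abundant of the 8 in every group. Together they made up 80.8% to 81.6% of the summed FPKM of the 8 in Neu+NETS libraries, 80.6% to 81.2% in Neu and 78.7% to 79.7% in CTR. The sum itself was 161.6 ± 6.35 FPKM in Neu+NETS, 371.2 ± 11.7 FPKM in Neu and 270.7 ± 3.02 FPKM in CTR (SD, n = 4 each). Lilrb4a exceeded 96.9% of tested genes in mean FPKM in Neu+NETS, and Pirb exceeded 22.9% there, against 59.0% in Neu and 41.5% in CTR.

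The order of levels differed between groups. In Neu+NETS it ran Lilrb4a, Sirpa, Cd300lf, Cd300lb, Cd300a, Cd300ld, Lair1 and Pirb, and Cd300lb and Cd300a did not differ beyond their spread. In Neu it ran Lilrb4a, Sirpa, Cd300lf, Cd300a, Cd300ld, Cd300lb, Pirb and Lair1, with overlap between Cd300a and Cd300ld and between Pirb and Lair1. In CTR it ran Sirpa, Lilrb4a, Cd300a, Cd300lf, Cd300lb, Cd300ld, Lair1 and Pirb, and Cd300a, Cd300lf and Cd300lb overlapped. The leading pair changed places: Lilrb4a stood at 1.78 ± 0.0673 times Sirpa in Neu+NETS and at 1.41 ± 0.0383 times in Neu, against 0.754 ± 0.0162 times in CTR (SD, n = 4 each), with no overlap between groups.

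**Figure D3:**
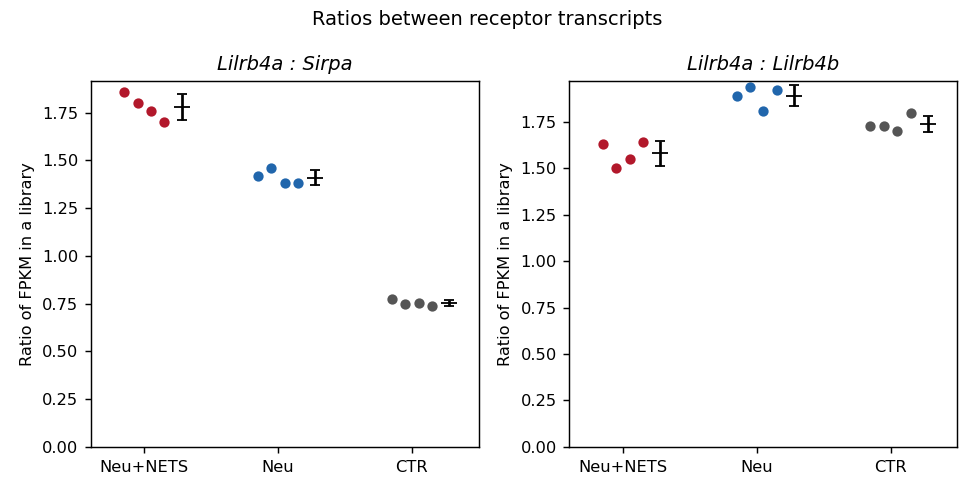
Ratio of FPKM within a library, Lilrb4a to Sirpa on the left and Lilrb4a to Lilrb4b on the right, for the 4 libraries of Neu+NETS, Neu and CTR with mean and SD (linear axes from 0). Lilrb4a to Sirpa is below 1 in the 4 CTR libraries (0.737 to 0.776) and above 1 in the 8 co-culture libraries (1.38 to 1.86). Lilrb4a and Lilrb4b share sequence, so their ratio also depends on how shared reads were divided.

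The activating counterparts and other loci of the same families were lower in Neu+NETS as well. Of 22 such genes listed, 18 were in the table and 15 were tested. Of all genes tested, 23.7% fell and 21.6% rose in Neu+NETS against CTR. In Neu against CTR 26.1% rose and 27.9% fell, and in Neu+NETS against Neu 33.1% fell and 29.4% rose. Against CTR, 14 of the 15 family genes fell in Neu+NETS and 0 rose (median log2 fold change -2.12, or -1.85 with genes near the detection floor set at their bound). In Neu against CTR, 5 of the 15 rose and 0 fell (median 0.26). Against Neu, 15 of 15 fell in Neu+NETS (median -2.81, or -2.08 at the bound). Lilra6, Pira13 and Sirpb1a had 0 counts in every Neu+NETS library. They passed the filter through the other groups, so they could only be called lower in Neu+NETS. Lilra6 had at most 9 counts in CTR as well, under the detection floor of 12. The exception against CTR was Lilrb4b, the activating neighbour of Lilrb4a also known as gp49A, which had 53.3 FPKM in Neu+NETS, against 92.8 FPKM in Neu and 53.0 FPKM in CTR. Its log2 fold change was -0.04 for Neu+NETS against CTR (edgeR adjusted p = 0.226), 0.86 for Neu against CTR and -0.91 for Neu+NETS against Neu. The ratio of Lilrb4a to Lilrb4b was 1.58 ± 0.0668 in Neu+NETS, 1.89 ± 0.0572 in Neu and 1.74 ± 0.0424 in CTR (SD, n = 4 each). The groups did not overlap, but the lowest Neu value was 1.81 and the highest CTR value 1.80. Lilrb4a, Lilrb4b and Gm49339 share sequence, so the ratio also depends on how shared reads were divided among them. A shift between the genes cannot be told apart from a shift in that division.

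PirA proteins, the activating partners of Pirb, signal through the Fc receptor gamma chain. The 6 Pira rows, which include the pseudogene rows Pira2-ps1 and Pira2-ps2, summed to 0.561 to 0.633 FPKM in Neu+NETS libraries, 4.15 to 5.02 FPKM in Neu and 2.52 to 2.87 FPKM in CTR. Of 6 tested genes between chr7:3714408 and 3901119, Pirb and Pira2-ps1 among them, 6 fell in Neu+NETS against CTR, 5 rose in Neu, and 6 fell in Neu+NETS against Neu. Of all genes tested, 23.7% fell, 26.1% rose and 33.1% fell in these comparisons. Pira1 had log2 fold changes of -2.04, 0.90 and -2.94 in the same order, and Pira2 had -2.10, 0.71 and -2.81. Pira13 had 0 counts in every Neu+NETS library and Pira2-ps1 averaged 0.00184 FPKM there. Both passed the filter through the other groups, so they could only be called lower in Neu+NETS. The near-identical Pira copies share reads, so values of a single copy are uncertain and the copies are not separate observations. Of the 3 genes nearest to Pirb on its other side, Rps9 had log2 fold changes of -0.08, 0.11 and -0.18, Tsen34 -0.14, -0.55 and 0.41, and Mboat7 -0.21, 0.39 and -0.60, and Mboat7 passed the test in all 3 comparisons. Tmc4, a little farther away, had 0.11, 1.87 and -1.75.

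The Cd300 genes lie together between chr11:114780867 and 115024818, with 11 genes in the table and 9 tested. All 9 fell in Neu+NETS against CTR (median log2 fold change -1.32) and against Neu (median -1.56), and in Neu against CTR 2 rose and 1 fell. The 2 that rose in Neu were Cd300ld and Cd300lf. Of all genes tested, 23.7% fell in Neu+NETS against CTR and 33.1% against Neu. In Neu against CTR 26.1% rose and 27.9% fell. Cd300c2 had log2 fold changes of -2.30, 0.26 and -2.56 and Cd300e had -2.18, -0.62 and -1.56 for Neu+NETS against CTR, Neu against CTR and Neu+NETS against Neu. Neither passed the test in Neu. Cd300lg, a member of the family that lies elsewhere on the chromosome, averaged 2.27 FPKM in Neu+NETS, 13.5 FPKM in Neu and 7.90 FPKM in CTR, with log2 fold changes of -1.85, 0.83 and -2.67. Next to the Cd300 genes, on the side of Cd300lf, Nherf1 had log2 fold changes of -0.09, 0.54 and -0.63 in the order of comparisons used above. Nat9 had -0.30, 1.32 and -1.62, and Tmem104 -1.06, 0.54 and -1.59. On the side of Cd300a, Kif19a had -0.72, -0.09 and -0.63, Btbd17 -1.50, -0.06 and -1.44, and Gprc5c -3.24, 2.80 and -6.05. Kif19a, Btbd17 and Gprc5c were called lower in Neu+NETS against both groups. Their levels there were low, at 0.711, 0.0924 and 0.00388 FPKM on average.

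Sirpb1c, a gene of the activating SIRP beta family, had 0.0912 FPKM in Neu+NETS, against 1.11 FPKM in Neu and 1.44 FPKM in CTR. Its log2 fold change was -3.96 for Neu+NETS against CTR and -3.64 against Neu, and -0.32 for Neu against CTR (edgeR adjusted p = 0.186).

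The phosphatases, kinases and adaptors that act with ITIMs were mostly lower in Neu+NETS. Of 19 tested, adaptors such as Grb2, Dok3 and Pstpip1 included, 16 fell and 2 rose in Neu+NETS against CTR (median log2 fold change -0.54), 9 rose and 4 fell in Neu against CTR (median 0.17), and 18 fell and 1 rose in Neu+NETS against Neu (median -0.73). Of all genes tested, 23.7% fell and 21.6% rose, 26.1% rose and 27.9% fell, and 33.1% fell and 29.4% rose in these comparisons. Ptpn6, which encodes SHP-1, had 54.5 ± 1.42 FPKM in Neu+NETS, 149.1 ± 2.83 FPKM in Neu and 114.6 ± 2.04 FPKM in CTR (SD, n = 4 each). Its log2 fold change was -1.12 for Neu+NETS against CTR, 0.44 for Neu against CTR and -1.56 for Neu+NETS against Neu (edgeR adjusted p = 5.4e-15, 3.0e-10 and 2.6e-17). Ptpn11, which encodes the related phosphatase SHP-2, ran the other way, with 0.14, -0.34 and 0.48 in the same order. Inpp5d, which encodes SHIP1, fell in Neu+NETS against CTR (-0.47) and against Neu (-0.53), and in Neu its value of 0.06 did not pass the test. Lyn, a Src-family kinase that phosphorylates ITIMs, had log2 fold changes of -0.61, 0.35 and -0.97. Ptprc, the receptor phosphatase CD45 that activates Src-family kinases, had -0.89, 0.24 and -1.13.

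Of 12 activating adaptors and proximal kinases tested, 10 fell and 1 rose in Neu+NETS against CTR (median log2 fold change -0.44), 6 rose and 2 fell in Neu against CTR (median 0.10), and 11 fell and 1 rose in Neu+NETS against Neu (median -0.59). The shares of all genes tested were 23.7% lower and 21.6% higher, 26.1% higher and 27.9% lower, and 33.1% lower and 29.4% higher in that order. Tyrobp, which encodes DAP12, the adaptor of Cd300lb, averaged 103.0 FPKM in Neu+NETS, 175.5 FPKM in Neu and 185.9 FPKM in CTR. It fell in Neu+NETS against CTR (-0.90) and against Neu (-0.87), and its value in Neu against CTR was -0.03 (edgeR adjusted p = 0.736). Fcer1g, which encodes the Fc receptor gamma chain, the adaptor of Cd300ld and the PirA proteins, averaged 169.8 FPKM in Neu+NETS, 254.0 FPKM in Neu and 214.1 FPKM in CTR, with log2 fold changes of -0.38, 0.30 and -0.69. Pik3ap1, an adaptor of phosphoinositide 3-kinase, had -0.63, 0.88 and -1.51, and Blnk, an adaptor downstream of Syk, had -1.57, -0.53 and -1.04. Lat2 was the adaptor that rose in Neu+NETS, with 0.61 against CTR and 0.41 against Neu.

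**Figure D4:**
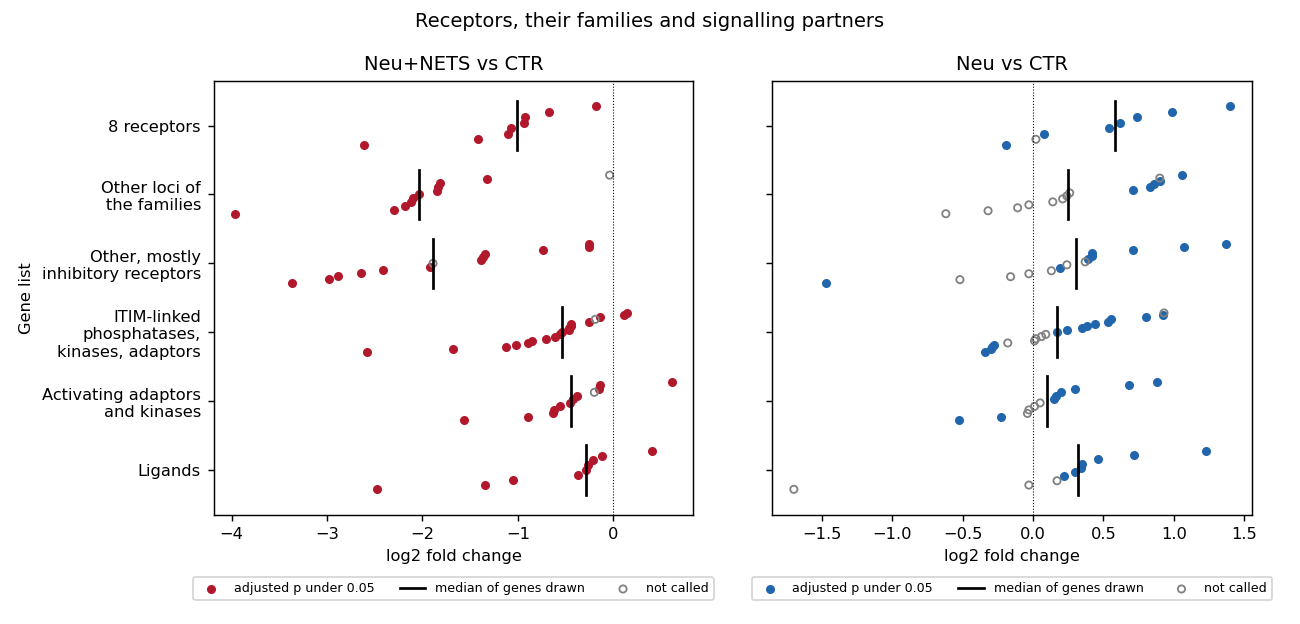
Log2 fold changes of the 8 receptors and of 5 gene lists around them in Neu+NETS against CTR and in Neu against CTR, where each point is a gene, filled if called by edgeR, and the line is the median of the genes drawn. Genes at or under 12 counts in every library of a group compared are not drawn. Most points lie below 0 in Neu+NETS in each list.

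Of 12 genes for ligands tested, 9 fell and 1 rose in Neu+NETS against CTR (median log2 fold change -0.28), 7 rose and 0 fell in Neu against CTR (median 0.35, or 0.26 with genes near the floor at their bound), and 10 fell in Neu+NETS against Neu (median -0.65, or -0.44 at the bound). Among all genes tested, 23.7% fell and 21.6% rose, 26.1% rose and 27.9% fell, and 33.1% fell and 29.4% rose in these comparisons. C1qa of this list had at most 4 counts in a Neu+NETS library and passed the filter through the other groups. Cd47, which encodes the ligand of Sirpa, had 6.57 ± 0.175 FPKM in Neu+NETS, 17.4 ± 0.369 FPKM in Neu and 7.74 ± 0.653 FPKM in CTR (SD, n = 4 each). It was 2.34-fold higher in Neu than in CTR (log2 fold change 1.23, edgeR adjusted p = 1.7e-12) and fell in Neu+NETS against CTR (-0.29, adjusted p = 1.5e-04) and against Neu (-1.51). Apoe, known as a ligand of LILRB4 in human, had log2 fold changes of -1.05, 0.30 and -1.35. Angptl2, an angiopoietin-like ligand of Pirb, had -0.37, 0.46 and -0.83. Rtn4, which encodes Nogo, rose in Neu+NETS (0.40) and in Neu (0.72) against CTR. Sema4a had -1.35, 0.35 and -1.70, and H2-D1, an MHC class I heavy chain, fell in Neu+NETS against CTR by 0.27 on the log2 scale.

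Receptors of a list of other, mostly inhibitory, receptors of myeloid cells were lower in Neu+NETS too. Of 15 tested, 13 fell and 0 rose in Neu+NETS against CTR (median log2 fold change -1.89), 8 rose and 1 fell in Neu against CTR (median 0.37), and 14 fell in Neu+NETS against Neu (median -2.48, or -1.61 with genes near the floor at their bound). The shares of all genes tested were 23.7% lower and 21.6% higher, 26.1% higher and 27.9% lower, and 33.1% lower and 29.4% higher in that order. Clec4a2 of this list had at most 4 counts in a Neu+NETS library and passed the filter through the other groups. Vsir, which encodes the checkpoint receptor VISTA, averaged 8.50 FPKM in Neu+NETS, 53.5 FPKM in Neu and 21.5 FPKM in CTR, with log2 fold changes of -1.39, 1.37 and -2.76. Pilra, an ITIM receptor of a paired family of its own, averaged 2.63 FPKM in Neu+NETS, 19.5 FPKM in Neu and 9.65 FPKM in CTR. Cd33 is a receptor for sialic acid. The list also holds Siglec1, a sialic acid-binding adhesion receptor without an ITIM. Cd33 and Siglec1 had log2 fold changes of -2.89 and -2.98 in Neu+NETS against CTR. Their values were 0.19 and 0.42 in Neu against CTR, and -3.08 and -3.39 in Neu+NETS against Neu. Milr1 had -0.26, 0.42 and -0.69.

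Marker levels of microglia and of neutrophils also differed between the groups. Of 12 tested markers of microglia and macrophages, 12 fell in Neu+NETS against CTR, and in Neu against CTR 4 rose, 3 fell and 5 did not pass the test (median log2 fold change 0.10). Of all genes tested, 23.7% fell in Neu+NETS against CTR, and in Neu against CTR 26.1% rose and 27.9% fell. P2ry12 and Gpr34 had at most 8 and 11 counts in a Neu+NETS library and passed the filter through the other groups. The summed level of the 12 markers was 533.5 to 563.7 FPKM in Neu+NETS, 891.2 to 930.1 FPKM in Neu and 850.1 to 909.0 FPKM in CTR, where Neu and CTR overlapped. Csf1r, the growth factor receptor that defines macrophages, averaged 26.7 FPKM in Neu+NETS, 87.9 FPKM in Neu and 91.3 FPKM in CTR, and Cd68, a lysosomal protein, averaged 351.5, 377.6 and 418.7 FPKM in that order. P2ry12 and Tmem119, which define resident microglia, were low throughout, with at most 0.658 and 3.67 FPKM on average.

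Of 20 markers of mature neutrophils 12 were in the table, and their summed level was 20.3 to 23.4 FPKM in Neu+NETS, 63.0 to 66.2 FPKM in Neu and 39.5 to 44.4 FPKM in CTR. Of 8 tested, 7 fell in Neu+NETS against CTR, where 23.7% of all genes fell. Mmp8 had 0 counts in every Neu+NETS library and 0 to 98 in CTR libraries. It passed the filter through the other groups, so it could only be called lower in Neu+NETS. Il1r2 had at most 9 counts in a Neu+NETS library, under the detection floor. In Neu against CTR 5 of the 8 rose, where 26.1% of all genes rose. Most of the sum came from Slpi, with 18.7 FPKM in Neu+NETS, 35.9 FPKM in Neu and 26.6 FPKM in CTR, and from Trem1, with 2.10, 14.0 and 8.83 FPKM in the same order. Both were thus present in BV2 cells grown alone. Il1r2, a decoy receptor for interleukin-1, had 0.0425 ± 0.0299 FPKM in Neu+NETS, 8.03 ± 0.302 FPKM in Neu and 0.32 ± 0.0685 FPKM in CTR (SD, n = 4 each), the marker of this list that rose most in Neu against CTR (log2 fold change 4.68, edgeR adjusted p = 4.1e-11). Lcn2 and Mmp9, which encode granule proteins, also rose in Neu against CTR (log2 fold change 2.07 and 1.47). Lcn2 averaged 0.0908 FPKM in Neu+NETS, 0.95 FPKM in Neu and 0.223 FPKM in CTR, and Mmp9 averaged 0.215, 1.46 and 0.548 FPKM in that order. Csf3r, the receptor for granulocyte colony-stimulating factor, averaged 0.691 FPKM in Neu+NETS, 4.15 FPKM in Neu and 5.15 FPKM in CTR. S100a8, among the most abundant transcripts of neutrophils, had 0.0547 ± 0.0703 FPKM in Neu+NETS, 0.189 ± 0.0455 FPKM in Neu and 0.257 ± 0.249 FPKM in CTR (SD, n = 4 each). Of 8 markers of neutrophil precursors 5 were in the table, and their sum was 7.16 to 9.29 FPKM in Neu+NETS, 19.5 to 23.1 FPKM in Neu and 15.6 to 18.2 FPKM in CTR, nearly all of it Cebpe. Cebpe and Prtn3 were the 2 precursor markers tested, and both rose in Neu against CTR. Prtn3 averaged 0.0462 FPKM in Neu+NETS, 0.399 FPKM in Neu and 0.0645 FPKM in CTR. Mpo, Camp and Ngp averaged under 0.02 FPKM in every group and Elane at most 0.0969 FPKM. Padi4, Ly6g and S100a9 were on the list of mature neutrophil markers, but no row of the table used bore these symbols, so no level is given. Monocyte markers summed to 0.643 to 1.06 FPKM in Neu+NETS, 1.12 to 1.22 FPKM in Neu and 1.70 to 2.60 FPKM in CTR. Markers of retinal neurons and glia summed to 23.5 to 26.2, 21.5 to 23.3 and 25.3 to 27.0 FPKM in that order, mostly Glul, and Gfap and Opn1sw were at or near 0. The part of these cell types in the receptor results was not tested.

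For each receptor, the 2 other genes with the most similar pair of log2 fold changes against CTR were sought among 7490 genes of at least 5 FPKM in a group, by Euclidean distance over the changes in Neu+NETS and in Neu. Pirb had no gene within a distance of 0.1, and its nearest were Abca1, a cholesterol exporter, at 0.36 and Pilrb2 at 0.39. Lair1 lay nearest to Fcna, the lectin ficolin A, at 0.0025 and to Tmem104 at 0.014, and Cd300lf to Pmp22 at 0.015 and Prss50 at 0.017. Cd300a lay nearest to Psmb9, a subunit of the immunoproteasome, at 0.024 and Serpinb8 at 0.056. Cd300lb lay nearest to Zfp362 at 0.032 and Cdc25b at 0.052, and Cd300ld to Rasa4 at 0.043 and Pla1a at 0.049. Sirpa lay nearest to Abcg1, a cholesterol exporter, at 0.048 and Gpnmb at 0.055. Lilrb4a lay nearest to Dip2a at 0.035 and Phf8 at 0.05, and had 23 genes within 0.1, the most of the 8. These distances are descriptions over 2 changes that share the CTR libraries.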

How the data were processed

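RNA was polyadenylated RNA of BV2 cultures in 12 libraries. The authors deposited estimated counts, whole numbers not scaled between libraries, and FPKM per gene, per the file headers, and every such column was matched to a library. Build GRCm39, StringTie 1.3.4d, HISAT2 2.0.4 and edgeR appear in the submitters' processing notes without a stated role. Neither annotation release nor strand setting is given there. Of count values from 2 to 41, 33.0% are multiples of 4, against 25% for an even spread, which does not settle how many units a fragment stands for. The detection floor of 3 fragments was set at 12 units, the value if each stands for 4, and covers counting error only.

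Counts were tested with edgeR 4.0.16 in R 4.3.3: filterByExpr (16387 genes), TMM factors of 0.97 to 1.03, all 12 libraries in 1 quasi-likelihood fit with a mean per group, two-sided tests and Benjamini-Hochberg adjustment over all genes. The biological coefficient of variation was 12.5%. SE is the log2 fold change over the square root of F, and 95% intervals are normal ones from that SE. FPKM levels are the authors' values with SD over 4 libraries. Groups and replicate numbers come from the labels. Alternatives were limma 3.58.1 on log2(FPKM + 1) or + 0.1, DESeq2 1.42.0, other filters and scaling, counts divided by 4, a replicate block, each library left out, and copies summed. The code was tested on simulated data.

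The receptors and all gene lists were chosen with earlier results of these data known. Named genes are the 8 receptors, up to 4 called genes of smallest adjusted p per list and comparison, and the 2 nearest genes to each receptor. Cd300c2, Cd300e, Inpp5d, Ptpn11, Tyrobp, Lat2 and the chromosomal neighbours were named outside this rule, after their values were seen. Some genes that the rule or the lists name are not reported here. A planned search of the proteins for ITIMs was not run. Promoters are RefSeq sequence of GRCm38.p6, and no coordinate was carried between builds.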

Additional observations from a re-analysis of the deposited data

Results flagged for a closer look

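Of 120 groups of 4 libraries examined, 9 had a library far from the other 3, with a gap to its nearest neighbour past Dixon's 95% critical value, and chance alone marks about 1 in 20. Among the 8 receptors the only such library concerned Lair1, which reached 5.88 FPKM in a Neu library, against 5.68 to 5.71 FPKM in the other 3, a gap that is small beside the difference from Neu+NETS and CTR. Cd300lg was lowest at 2.10 FPKM in a Neu+NETS library (2.32 to 2.33 FPKM in the others) and at 7.10 FPKM in a CTR library (8.08 to 8.25 FPKM). Sema4a was lowest at 7.06 FPKM in a Neu+NETS library (8.17 to 8.29 FPKM) and at 18.5 FPKM in a CTR library (19.8 FPKM and above). Siglec1 was highest at 4.93 FPKM in a Neu+NETS library (4.18 to 4.30 FPKM) and at 49.1 FPKM in a Neu library (40.8 to 41.7 FPKM). In Neu, Grb2 was lowest at 40.4 FPKM (44.6 to 45.3 FPKM) and Cd33 highest at 34.0 FPKM (33.0 to 33.1 FPKM).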

How the results depend on the processing

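Of 558 alternative values for the 24 receptor fold changes, 534 kept their direction and side of the threshold. The number of receptors called was 8 in Neu+NETS against CTR and against Neu under every alternative run, and 5 to 7 in Neu against CTR. The genes called ranged from 6918 to 7719, from 8320 to 9003 and from 9546 to 10391 in Neu+NETS against CTR, Neu against CTR and Neu+NETS against Neu. The Cd300a value in Neu against CTR, which no fit called, changed sign: it was -0.0332 with limma on log2(FPKM + 1), with and without the filter, -0.0353 with limma on log2(FPKM + 0.1), and -0.0083, -0.000683 and -0.000283 without Neu replicate 4, CTR replicate 1 and CTR replicate 4, in a range up to 0.0444 without CTR replicate 2. Psmb9 and Gpnmb in Neu against CTR also changed sign with limma, to -0.0148 and -0.0219 on log2(FPKM + 1), with and without the filter, and to -0.0162 and -0.022 on log2(FPKM + 0.1). The cause was not tested. Limma on log2(FPKM + 1) called 4152 genes higher and 3029 lower in Neu+NETS against CTR, where edgeR called 3535 and 3885. It called 3534 and 5156 in Neu against CTR, where edgeR called 4284 and 4578, and 5562 and 4022 in Neu+NETS against Neu, where edgeR called 4819 and 5422. In Neu+NETS against CTR, edgeR on library totals only called 4358 higher and 3332 lower, and with median-of-ratios scaling 3865 and 3632. DESeq2 called 4054 and 3665 there. The shares of all genes given as higher or lower thus depend on the scaling and the tool.

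The replicate numbers did not pair the libraries: 12 correlations of same-numbered libraries ran from -0.055 to 0.043, and 4 of 12 libraries correlated best with their own number. With a replicate block, 7310, 8824 and 10208 genes were called in the 3 comparisons and no receptor call changed. With 97 to 141 counts a library, Pirb in Neu+NETS is the receptor value that depth limits most.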
